A study of Mus musculus with 50 samples.

Results

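The effect of a single 20 Gy dose, given with an isotype control antibody and no immunotherapy, was measured in transplant sarcomas by bulk RNA-seq. The comparison rests on 8 of the 50 libraries of the series, 4 from irradiated tumors and 4 from tumors that received the isotype antibody and 0 Gy. All 8 tumors grew in the gastrocnemius muscle of 129/SvJae mice after 50000 cells of the line 402230 had been injected, and were treated at a set volume with 200 µg of the isotype antibody, immediately before 0 or 20 Gy to the tumor-bearing hind limb. Tumors were taken 3 days after treatment. The line was derived from 1 primary p53/MCA sarcoma, a tumor started by Adeno-Cre deletion of floxed Trp53 in the muscle and injection of the carcinogen 3-methylcholanthrene (MCA), so every tumor here goes back to the same primary sarcoma and all carried the p53 deletion, controls included. The comparison asks what radiation alone changes in the RNA of a transplanted tumor, against the same treatment without radiation. The other transplants (4 with anti-PD-1 antibody at 0 Gy, 4 with anti-PD-1 antibody at 20 Gy) and 16 primary tumors (8 with isotype antibody at 0 Gy, 8 with isotype antibody at 20 Gy) served for comparison.

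Whole tumors were sequenced, with the host cells in them, and a difference in a bulk library cannot tell fewer cells of a type from less RNA per cell. The 8 libraries held 38040121 to 53307204 counts. Mean total counts after 20 Gy differed from the controls by -477215 (exact two-sided permutation test, p = 0.943, where 4 against 4 libraries cannot go below 0.0286), and 13847 to 14249 genes reached 1 CPM (counts scaled to a common library total) in the controls against 13694 to 14199 after radiation (exact p = 0.486). Skeletal muscle genes took between 0.0085 and 1.99% of the counts in the controls and between 0.0092 and 1.20% after 20 Gy (exact p = 0.657), and replicate 1 of each group was nearly free of muscle RNA. Genes of fibroblasts and sarcoma mesenchyme, a list not particular to tumor cells, stood at a mean log2 CPM of 7.84 to 8.31 in the controls and 7.66 to 8.40 after 20 Gy. Their summed level was 6880 to 10076 CPM in the controls and 4720 to 20440 CPM after 20 Gy. Some measures moved with the dose: the number in the library label began with 500 in all 4 controls and in 1 of the 4 irradiated libraries, Xist reached 1 CPM in 1 control and 3 irradiated libraries, and mitochondrial transcripts took 1.09 to 2.03% of the counts in the controls but 0.629 to 0.938% after radiation. Their part in the results was not tested beyond the fits named below. Xist is a transcript of female cells, and Ddx3y, of the Y chromosome, was at 52.6 to 68.2 CPM in the controls and 31.6 to 57.9 CPM after 20 Gy. The study used mice of both sexes, so the sex of the hosts may have differed with the dose. The study describes its tumors as taken from individual mice, and the labels give each library a number of its own.

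Ionizing radiation breaks DNA, and cells answer with cell cycle arrest, repair or death, in part through p53. DNA and RNA that end up in the cytosol are bound by sensors such as cGAS, RIG-I and MDA5, which drive the production of type I interferons. Interferons act through their receptor on STAT2 and IRF9, and these switch on a large set of interferon-stimulated genes whose promoters often hold a short response element (ISRE).

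Expression was higher after 20 Gy for 352 genes and lower for 20 of the 19327 genes tested (edgeR quasi-likelihood test with Benjamini-Hochberg adjusted p under 0.05), which is 1.82% and 0.103% of the genes. At least a 2-fold change was seen for 264 of the higher and 12 of the lower genes. The median log2 fold change (20 Gy minus 0 Gy) was 1.51 over the genes called higher, -1.21 over the genes called lower and -0.03 over all genes tested. For 360 of the 372 called genes the 4 irradiated libraries lay wholly above or below the 4 controls. Of all genes tested, 9.03% had every irradiated library above every control and 4.49% had every irradiated library below. Fewer libraries gave other counts, with 91, 631 and 72 genes called without control replicate 1, 3 and 4, 30.9% as many as with all libraries without control replicate 2, and 197 and 196 genes without irradiated replicate 1 and 4. Without replicate 1 of both groups, the muscle-poor libraries, 6 genes were called, and a term for label numbers beginning with 500 left 72. A term for Xist at 1 CPM or more left 300. In each of these fits, those of the 372 genes that were tested kept their direction.

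Type I interferon-stimulated genes, the antiviral effectors that cells make in answer to interferon, rose with few exceptions. Of the 47 genes on this list, 45 rose and none fell, with a median log2 fold change of 2.10 over the list. The 2 that did not pass were Slfn4 (3.08 ± 0.94, adjusted p = 0.077) and Epsti1 (1.48 ± 0.45, adjusted p = 0.0732). For each of the 47 genes the lowest irradiated library was above the highest control. The shares over all genes tested were 1.82% called higher and 9.03% with every irradiated library above every control. The summed level of the list ran from 1867 to 3608 CPM in the controls and from 8626 to 14287 CPM after 20 Gy. Without replicate 1 of both groups 1 of the 47 genes was called, and the counts were 21, 23, 16 and 27 without control replicate 1, 2 and 4 and irradiated replicate 1. A term for label numbers beginning with 500 left 11 calls, and a term for Xist at 1 CPM or more left 34. The list's median log2 fold change was 1.91 without replicate 1 of both groups, the lowest of the 18 alternatives, and at most 2.37.

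Promoter sequence is shown for 6 interferon-regulated genes named in the text and for Mmp13, the gene with the largest rise by the naming rule, because a short interferon response element could be read in each of them. Sequences are from RefSeq (GRCm38.p6, the same coordinates as mm10), written 5′ to 3′ on the strand of the gene, and capitals mark each match to the ISRE core, a pair of GAAA tetramers with any 2 bases between them, on either strand.
Ifit1 (chr19:34640760-34640838, plus strand): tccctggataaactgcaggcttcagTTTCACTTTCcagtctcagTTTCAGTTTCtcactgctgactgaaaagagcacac
Ifit3 (chr19:34583348-34583441, plus strand): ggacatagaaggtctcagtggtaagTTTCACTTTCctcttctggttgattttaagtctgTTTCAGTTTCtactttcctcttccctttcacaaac
Rsad2 (chr12:26456538-26456597, minus strand): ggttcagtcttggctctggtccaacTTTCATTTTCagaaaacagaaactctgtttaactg
Isg15 (chr4:156200850-156200921, minus strand): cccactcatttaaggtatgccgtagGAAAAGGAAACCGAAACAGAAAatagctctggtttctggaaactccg
Oas3 (chr5:120777700-120777759, minus strand): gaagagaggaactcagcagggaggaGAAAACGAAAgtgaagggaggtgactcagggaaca
Ifi207 (chr1:173741816-173741875, minus strand): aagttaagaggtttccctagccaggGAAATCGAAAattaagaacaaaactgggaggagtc
Mmp13 (chr9:7272343-7272402, plus strand): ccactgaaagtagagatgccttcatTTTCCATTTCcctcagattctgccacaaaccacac

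Ifit1 and Ifit3 held 2 matches each, and Isg15 held 3 that overlap one another. A match was counted in windows of 250 bases before to 50 bases after each start site. Such a match was present in 503 of the 13118 promoters with a sequence (3.83%), in 58 of 268 promoters of genes higher after 20 Gy (21.6%) and in 0 of 16 promoters of genes lower after 20 Gy. Among the interferon-stimulated genes 18 of 40 promoters held one (45.0%). Of the higher genes on none of the 38 fixed lists, 29 of 200 promoters did (14.5%). These are matches of letters, counted with no test, and do not show binding.

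Among RNA-binding effectors all 11 genes of the IFIT and OAS families rose, with log2 fold changes of 2.10 to 3.41. Ifit3 (chr19:34583531-34588731), whose product works with Ifit1 on viral RNA, was measured at 41.8, 48.4, 71.5 and 38.6 CPM in the controls and 831, 373, 295 and 432 CPM after 20 Gy. Ifit3b was at 13.1, 13.3, 20.4 and 11.8 CPM against 288, 101.1, 88.6 and 146 CPM. For both genes the lowest irradiated library was over 4-fold above the highest control. Their log2 fold changes were 3.27 ± 0.66 (SE, adjusted p = 0.00424) and 3.41 ± 0.68 (adjusted p = 0.0036). The Ifit3 and Ifit3b genes are near-identical neighbors, so reads may have been split between them. Ifit1bl1 rose from 5.23 to 9.19 CPM to 54.9 to 70.5 CPM (3.23 ± 0.65, adjusted p = 0.0036). Oas3, which makes the second messenger that activates RNase L, stood at 14.98, 20.8, 43.9 and 11.3 CPM and then 185, 147, 177 and 193 CPM (2.95 ± 0.55, adjusted p = 0.00265). Every irradiated Oas3 value was over 3-fold above the highest control, which was replicate 3. Oasl1, a translational brake on Irf7, rose by 3.19 ± 0.61 (adjusted p = 0.00283).

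The other antiviral effectors followed, with 13 of 14 genes higher and a median of 2.33. Rsad2 (chr12:26442746-26456452), which encodes viperin, a maker of chain-terminating nucleotides, was at 12.5, 13.5, 25.1 and 10.3 CPM in the controls and 242, 145, 98.3 and 155 CPM after radiation. No Rsad2 values overlapped between the groups (3.39 ± 0.67, adjusted p = 0.00357). Its neighbor Cmpk2, a mitochondrial nucleotide kinase, moved from 9.28 to 23.7 CPM to 69.7 to 194 CPM (3.06 ± 0.67, adjusted p = 0.00785). The GTPase Mx1 ran from 12.1 to 21.5 CPM to 67.5 to 178 CPM (2.72 ± 0.63, adjusted p = 0.0138). Slfn8 was one of 6 genes also called in all 18 alternative fits, at 7.09, 5.96, 10.3 and 5.76 CPM and 24.7, 20.2, 25.2 and 25.3 CPM (1.71 ± 0.28, adjusted p = 0.00101). All 4 genes of the ISG15 pathway rose, a system that couples the small protein ISG15 to other proteins. Isg15 and Ube2l6 were each called in 9 of 18 alternatives, Uba7 in 14 and Herc6 in 16. Isg15 itself was at 59.98, 69.6, 71.8 and 52.4 CPM against 788, 328, 256 and 327 CPM (2.74 ± 0.72, adjusted p = 0.0319), and irradiated replicate 1 was more than 2-fold above the other irradiated libraries. Of the remaining 18 genes 17 rose, among them Slfn5 (2.04 ± 0.36, adjusted p = 0.00186) and Trim30a (2.07 ± 0.36, adjusted p = 0.00186).

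**Figure D1:**
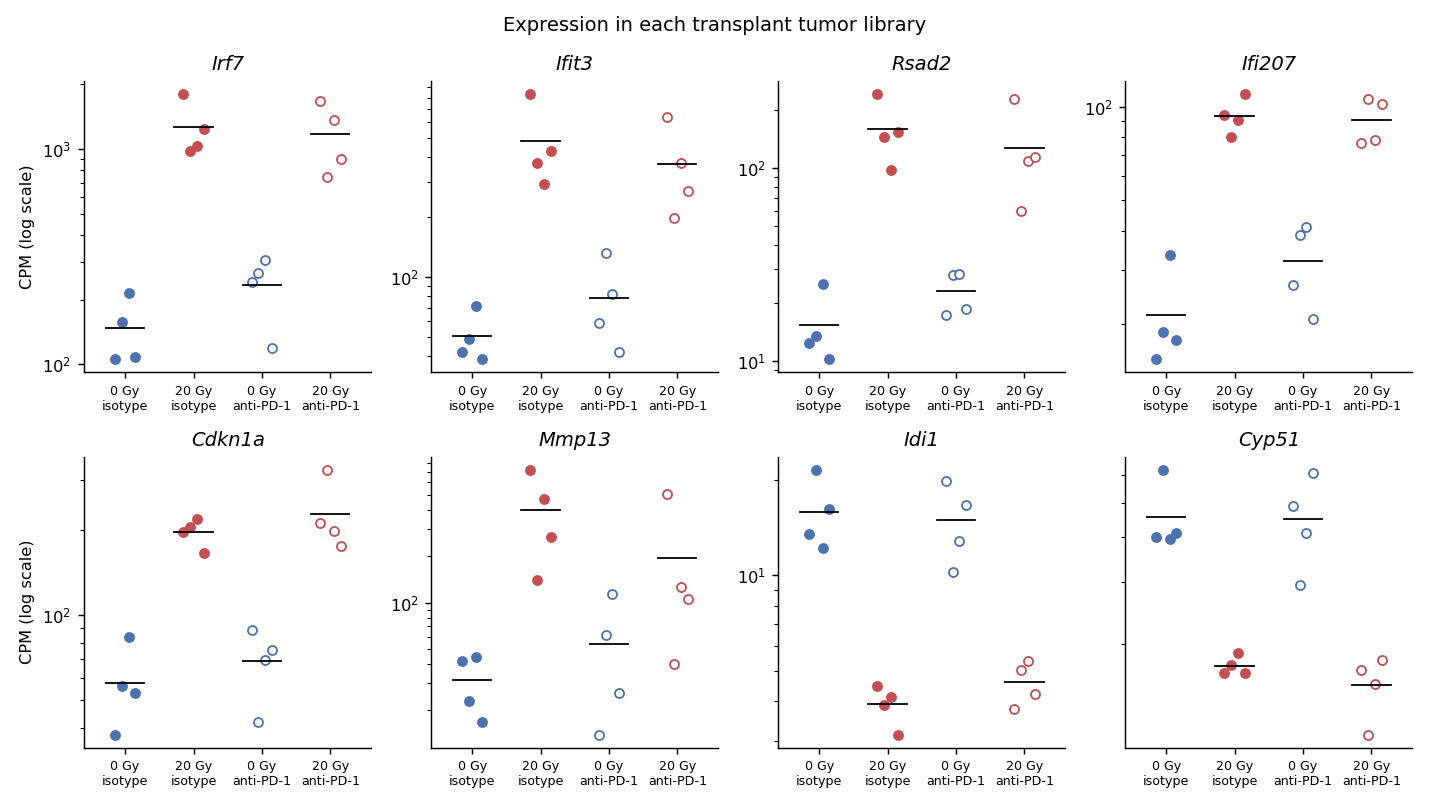
CPM (log axis) of 8 genes in each transplant library, isotype as filled and anti-PD-1 as open points, 0 Gy in blue and 20 Gy in red, with the group mean as a line (4 libraries a group). In the isotype groups the 4 irradiated libraries sit above all controls for Irf7, Ifit3, Rsad2, Ifi207, Cdkn1a and Mmp13, and below all controls for Idi1 and Cyp51.

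Interferon genes themselves were barely detected. Ifnb1, the interferon beta gene, had 5 to 6 raw counts in each control, and was at 0.143, 0.137, 0.113 and 0.112 CPM in the controls and 2.26, 0.37, 0.329 and 0.658 CPM after 20 Gy. The irradiated libraries were all higher, and replicate 1 was highest. Its log2 fold change did not pass the test (2.82 ± 0.95, adjusted p = 0.127). Ifng overlapped, at 1.17, 0.848, 2.09 and 0.269 CPM against 0.798, 2.42, 2.77 and 2.15 CPM (0.89 ± 0.95, adjusted p = 0.811). The interferon alpha genes Ifna4 and Ifnab each had 1 count over the controls and 6 over the irradiated libraries, and no count was found for Ifnk, Ifnl2 or Ifnl3 in any of the 8. None of the 7 tested ligand and receptor genes was called (median 0.46). The receptor subunit Ifnar2 was at 56.3, 59.5, 65.1 and 54.9 CPM and 79.4, 81.5, 84.7 and 78.4 CPM, without overlap (0.46 ± 0.17, adjusted p = 0.195), and Ifnar1 at 113.8 to 134.8 CPM and 131.01 to 151 CPM.

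Downstream of the receptor 6 of 15 signal transduction genes rose and none fell (median 0.94). The share called higher was 1.82% over all genes tested. Irf7 (chr7:141262706-141266481), the factor that amplifies interferon transcription, was at 106.2, 158, 216 and 108.7 CPM in the controls and 1801, 976, 1032 and 1247 CPM in the irradiated tumors. Its 4 irradiated values were all more than 4-fold above the highest control (3.10 ± 0.57, adjusted p = 0.00228). Stat2 (1.61 ± 0.35, adjusted p = 0.00734) and Irf9 (1.15 ± 0.26, adjusted p = 0.0114), partners in the interferon-activated complex, rose less. Irf5 (1.30), Irf2 (0.81) and Usp18 (2.81), the last a brake on the receptor, were also called, with adjusted p values of 0.0193, 0.0332 and 0.0179. The groups overlapped for Irf2. Irf1 at 0.91 ± 0.36 (adjusted p = 0.239) and Socs1 at 0.94 ± 0.35 (adjusted p = 0.21) were not called. In the 18 alternatives Irf2 was called in 7, Irf5 and Usp18 in 12 each, Stat2 and Irf9 in 14 each and Irf7 in 17.

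Sensors of nucleic acid rose as well, 12 of 17 with none lower (median 1.25), where 1.82% of all genes tested were called higher. Of 7 RNA sensors 6 rose. Ifih1, which encodes MDA5, was at 26.8, 32.4, 49.9 and 22.4 CPM and 169.8, 128.3, 120.7 and 148 CPM (2.11 ± 0.41, adjusted p = 0.0032). Ddx58, which encodes RIG-I, was at 49.8, 51.1, 73.6 and 39.5 CPM and 167, 171, 138.2 and 188 CPM (1.64 ± 0.35, adjusted p = 0.00734). Both ran without overlap between the groups. Tlr3, Tlr7, Dhx58 and the kinase Eif2ak2 rose by 1.12 to 2.03 on the log2 scale. On the DNA side Zbp1 (1.92 ± 0.48, adjusted p = 0.0215), Ifi204 (1.53 ± 0.30, adjusted p = 0.00327) and Samhd1 (1.25 ± 0.34, adjusted p = 0.037) rose, with overlapping groups for Samhd1, and Tlr9 reached 97.8 to 138.7 CPM from 12.7 to 53.04 CPM (2.20 ± 0.51, adjusted p = 0.0132). Cgas, the cytosolic DNA sensor, was at 15.6, 15.5, 18.8 and 16.8 CPM against 32.5, 20.7, 23.5 and 23.1 CPM (0.58 ± 0.22, adjusted p = 0.226), and Tmem173, which encodes STING, at 65.8 to 115.8 CPM against 113.2 to 149.7 CPM (0.52 ± 0.26, adjusted p = 0.405). The adaptor Myd88 rose by 0.97 ± 0.19 (adjusted p = 0.00328). Eif2ak2 was called in 6 of 18 alternatives, Samhd1 in 7, the kinase Ikbke in 9, Zbp1 in 12, and Tlr3 and Tlr9 in 13 each. Tlr7 was called in 14, Ddx58 in 15, Dhx58 and Ifi204 in 16 each, and Ifih1 and Myd88 in 17 each.

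The gene with the smallest adjusted p in the whole comparison was Ifi207 (chr1:173723427-173741747), of the PYHIN family of nuclear and cytosolic DNA-binding proteins. Ifi207 was at 15.5, 18.9, 33.3 and 17.8 CPM in the controls and 94.2, 79.9, 90.8 and 109.6 CPM after 20 Gy, and the lowest irradiated library was over 2-fold above the highest control. The log2 fold change was 2.13 ± 0.26 (adjusted p = 5.6e-06), and the gene was called in all 18 alternatives. The family, added as a list after these values were seen, lies in 1 cluster on chromosome 1. Of its 17 genes 14 were tested, 12 rose (median 2.18) and all 14 ran without overlap. Among all genes tested 1.82% rose and 9.03% ran wholly above the controls. Ifi203-ps, annotated as a pseudogene, was at 1.88, 1.63, 2.32 and 2.33 CPM and 11.7, 8.79, 7.26 and 11.7 CPM (2.27 ± 0.34, adjusted p = 0.000334). Ifi213 had the largest fold of the family at a low level, from 0.16 to 0.36 CPM to 2.74 to 4.001 CPM (3.72 ± 0.67, adjusted p = 0.00219), and Ifi206 rose by 3.28 ± 0.66 (adjusted p = 0.0037). The inflammasome sensor Aim2 (1.03 ± 0.40, adjusted p = 0.224) and Ifi202b (1.19 ± 0.37, adjusted p = 0.0799) did not pass. These genes are close copies and Mndal overlaps Ifi203, so the split of reads among them is uncertain.

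Of the genes that answer mainly to interferon gamma, a smaller share was called than of the type I list. Of 18 interferon-gamma-inducible GTPases, which attack the vacuoles of intracellular microbes, 3 rose: Gbp3 (1.71 ± 0.47, adjusted p = 0.0427), Gbp9 (1.64 ± 0.40, adjusted p = 0.0212) and Irgm1 (1.81 ± 0.44, adjusted p = 0.019). Gbp3 was called in 6 of 18 alternatives, and Gbp9 and Irgm1 in 12 each. The list's median was 1.52, all 18 values were positive and 13 ran without overlap. Over all genes tested, 1.82% were called higher and 9.03% had every irradiated library above every control. Irgm1 was at 113.5, 106.5, 213 and 49.1 CPM in the controls, where replicate 4 was lowest and replicate 3 highest, and at 405, 397, 387 and 506 CPM after 20 Gy. The same order of the controls was seen in Gbp2, at 212, 207, 413 and 67.2 CPM against 460.3, 479, 604 and 674 CPM (1.30 ± 0.47, adjusted p = 0.175). The list's mean log2 CPM had an SD of 0.978 over the controls and of 0.207 over the irradiated libraries. None of 21 genes of MHC class I presentation passed the test (median 0.94), although 20 values were positive and 15 ran without overlap. H2-K1, a heavy chain, was at 1409, 1692, 2386 and 741 CPM and 3367, 3202, 3604 and 3788 CPM (1.16 ± 0.46, adjusted p = 0.245). Tap1, a subunit of the peptide transporter, gave 1.17 ± 0.42 (adjusted p = 0.171). None of 11 MHC class II genes was called either (median 0.57).

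Of 35 chemokines and chemokine receptors, which steer leukocytes into tissue, 2 rose (median 0.81). Cxcl11, a ligand of CXCR3, was at 19.9, 16.5, 21.997 and 9.30 CPM against 263, 75.4, 64.6 and 107.05 CPM (2.91 ± 0.81, adjusted p = 0.0446). Ccl5, an attractant of T cells and macrophages, was at 24.6, 45.9, 34.9 and 19.9 CPM against 346, 149, 120.8 and 176 CPM (2.66 ± 0.63, adjusted p = 0.0177). Irradiated replicate 1 was highest for both. Cxcl11 was called in 7 of 18 alternatives and Ccl5 in 13. Cxcl10 (2.29 ± 0.67, adjusted p = 0.0637), Ccl7 (2.07 ± 0.61, adjusted p = 0.0635) and Ccl2 (1.82 ± 0.58, adjusted p = 0.0993) had values of similar size and did not pass. Of 30 inflammatory cytokine genes Tnf (1.98 ± 0.54, adjusted p = 0.0395) and Il18bp, which encodes an antagonist of interleukin-18 (1.79 ± 0.47, adjusted p = 0.0318), rose. In the 18 alternatives Tnf was called in 7 and Il18bp in 10. Among 16 checkpoint ligands and suppressive enzymes Lgals9 rose (1.42 ± 0.36, adjusted p = 0.0253). Cd274, which encodes PD-L1, was at 22.9, 26.5, 44.6 and 11.7 CPM in the controls and 77.8, 81.9, 89.4 and 100.04 CPM after 20 Gy, without overlap, and its change did not pass (1.72 ± 0.53, adjusted p = 0.0839). Of 19 death pathway genes Ripk1 (0.47 ± 0.12, adjusted p = 0.0319, with overlapping groups) and Nlrp3 (1.27 ± 0.35, adjusted p = 0.0416) rose. Ripk1 and Nlrp3 were each called in 7 of 18 alternatives.

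**Figure D2:**
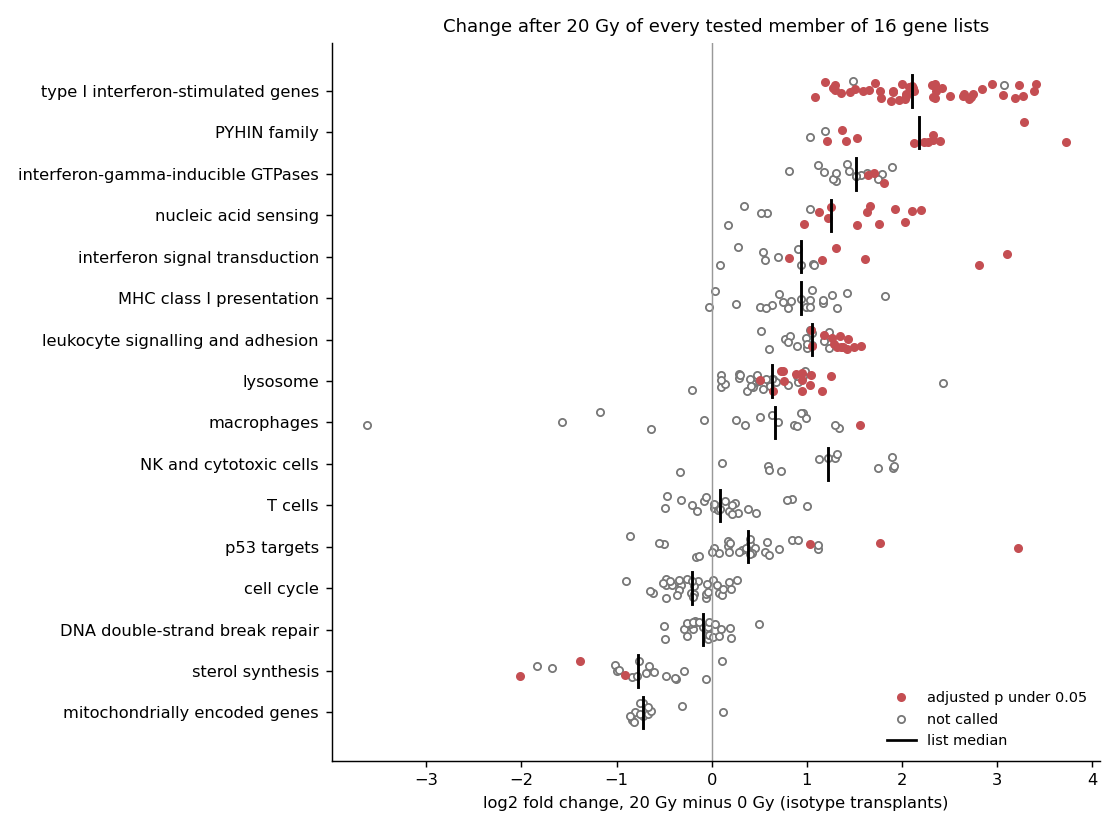
Log2 fold change (20 Gy minus 0 Gy, isotype transplants) of each tested member of 16 gene lists, red where the adjusted p was under 0.05, with the list median as a black bar. Red points fill the type I interferon list (45 of 47, median 2.10). On the sterol synthesis list 19 of 20 values lie below 0 with 3 called, and the T cell list centers at 0.09 with none called.

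Trp53 had been deleted in the tumor lineage, and 3 of 32 p53 target genes rose and none fell (median 0.38). The share called higher was 1.82% over all genes tested. Of the 32 targets, 7 ran wholly above the controls and 2 wholly below, against 9.03% and 4.49% of all genes tested. Cdkn1a (chr17:29090976-29100727), which encodes the cell cycle inhibitor p21, was at 37.9, 56.1, 83.6 and 53.02 CPM in the controls and 197, 205, 219 and 166 CPM after 20 Gy. The groups did not overlap (1.77 ± 0.33, adjusted p = 0.00228), and 17 of 18 alternatives called it. Gdf15, a secreted stress factor, was low throughout, at 0.191, 0.252, 0.18 and 0.0897 CPM and 1.64, 1.70, 1.70 and 1.70 CPM (3.22 ± 0.59, adjusted p = 0.00224). Bbc3, which encodes the cell death inducer PUMA, was at 7.71, 7.35, 8.11 and 7.87 CPM and 18.3, 15.8, 15.4 and 14.2 CPM (1.04 ± 0.26, adjusted p = 0.0212). The long noncoding RNA Trp53cor1, a neighbor of Cdkn1a that was picked after its values were seen, was at 0.167, 0.206, 0.158 and 0.314 CPM and 1.69, 1.26, 1.34 and 1.11 CPM (2.66 ± 0.47, adjusted p = 0.00186). Other targets did not pass. Mdm2, the negative regulator of p53, was at 0.36 ± 0.16 (adjusted p = 0.323), Bax at 0.40 ± 0.20 (adjusted p = 0.424), Ccng1 at 0.07 ± 0.49 (adjusted p = 0.984) and Sesn2 at 1.11 ± 0.32 (adjusted p = 0.052). Trp53 itself was at 26.1, 29.1, 38.4 and 29.8 CPM against 40.5, 43.7, 42.2 and 40.6 CPM (0.44 ± 0.25, adjusted p = 0.526). A count over the whole gene cannot tell reads of host cells from reads of the exons left by the deletion.

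Enzymes of sterol synthesis were among the 20 lower genes. Cells make cholesterol from acetyl-CoA through mevalonate, and the factor SREBP2 turns the enzymes up when sterol is scarce. Of 20 enzymes 3 fell and none rose (median -0.77), 19 values were negative and 15 ran wholly below the controls. Among all genes tested 0.103% were called lower and 4.49% ran wholly below. The count was 9 when the 16 transplants alone were fitted and 0 with a term for label numbers beginning with 500 or without replicate 1 of both groups. It was 1 without control replicate 1 or irradiated replicate 1, 2 or 3, and 0 without control replicate 2 or 4 or irradiated replicate 4. The list's median log2 fold change was -0.87 with the label term, the lowest of the 18 alternatives, and at most -0.67. Idi1 (chr13:8885501-8892451), which makes dimethylallyl diphosphate, was at 13.5, 21.5, 12.2 and 16.2 CPM in the controls and 4.48, 3.90, 4.14 and 3.14 CPM after 20 Gy (-2.02 ± 0.49, adjusted p = 0.0183). Cyp51, the lanosterol demethylase, was at 40.0, 61.9, 39.4 and 41.3 CPM and 16.6, 17.5, 18.9 and 16.7 CPM (-1.39 ± 0.36, adjusted p = 0.0282). Hmgcs1, which feeds the mevalonate branch, was at 59.4, 81.0, 63.1 and 57.2 CPM and 29.3, 33.3, 37.2 and 38.7 CPM (-0.91 ± 0.25, adjusted p = 0.0445). In all 3 the highest irradiated library was below the lowest control. Control replicate 2 was highest for each. Idi1 was called in 13 of 18 alternatives, Cyp51 in 9 and Hmgcs1 in 6.

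Other steps of the pathway had values of the same sign that did not pass. Fdps was at -1.83 ± 0.54 (adjusted p = 0.0657) and Sqle at -1.001 ± 0.40 (adjusted p = 0.255). Ebp was the only positive value. Of 7 genes of sterol uptake and sensing 2 fell, Insig1 (-1.18 ± 0.33, adjusted p = 0.0461), which holds SREBP in the endoplasmic reticulum, and Stard4, a carrier of cholesterol (-0.63 ± 0.16, adjusted p = 0.0297). Insig1 was called in 7 of 18 alternatives and Stard4 in 9. Srebf2 was at -0.70 ± 0.28 (adjusted p = 0.245). On the efflux side 2 of 7 genes rose. Abcg1, a cholesterol exporter, was at 45.6, 43.0, 104.3 and 32.2 CPM and 269, 196, 243 and 279.8 CPM (2.13 ± 0.41, adjusted p = 0.00283), and Nr1h3, which encodes LXR alpha, rose by 1.53 ± 0.42 (adjusted p = 0.0395). None of 12 genes of fatty acid synthesis was called (median -0.34). The sterol regulatory element was found on either strand in 32 of 13118 promoter windows (0.244%) and in 0 of 19 of the sterol synthesis, uptake and sensing genes.

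**Figure D3:**
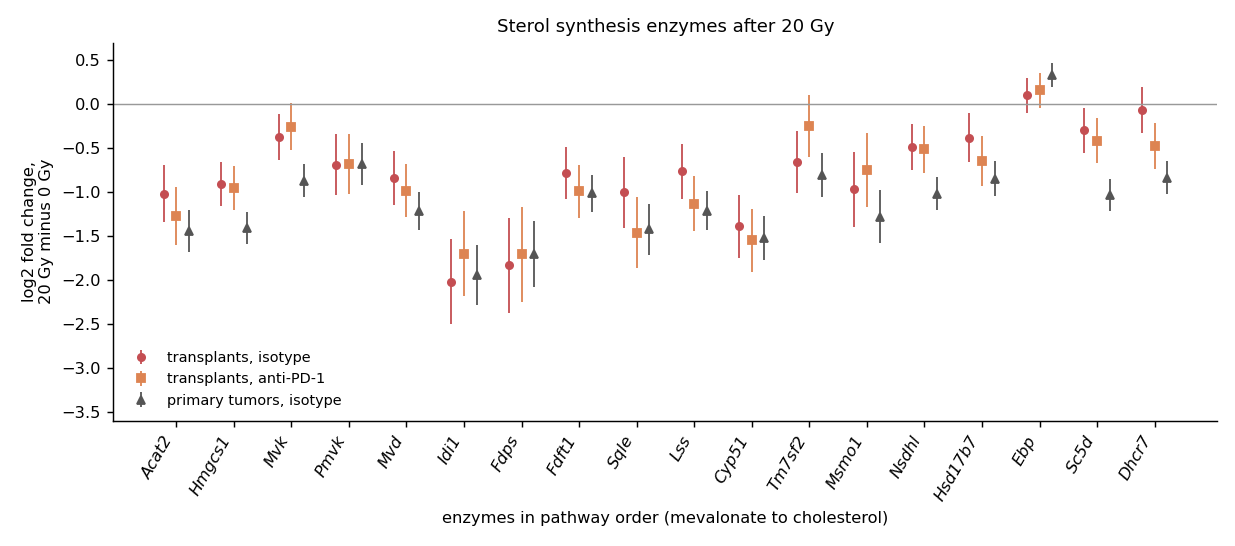
Log2 fold change (20 Gy minus 0 Gy, bars are standard errors of the fit) of 18 of the 20 sterol synthesis enzymes in pathway order, in isotype transplants (4 against 4 libraries), anti-PD-1 transplants (4 against 4) and isotype primary tumors (8 against 8). In isotype transplants 17 of the 18 values shown are below 0, with Idi1 lowest at -2.02 and Ebp alone above 0.

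Genes of leukocytes and of lysosomes were also among the higher genes. A list of 29 genes of leukocyte signalling and adhesion, drawn up after their values were seen, held 13 that rose and none that fell (median 1.06), and 28 ran without overlap. The shares over all genes tested were 1.82% called higher and 9.03% wholly above the controls. Spi1, which encodes the myeloid factor PU.1, was at 63.6, 76.1, 116.9 and 69.8 CPM and 230.5, 175, 199 and 179 CPM (1.26 ± 0.29, adjusted p = 0.0134). Ptprc, which encodes the leukocyte marker CD45, was at 106.6, 151, 222 and 95.4 CPM and 508, 310.2, 444 and 442 CPM (1.57 ± 0.42, adjusted p = 0.0355). Control replicate 3 was the highest control for both genes. A list of 41 lysosomal genes, chosen in the same way, held 13 that rose and none that fell (median 0.63). Grn, which encodes progranulin, was at 417, 480.1, 690.4 and 322 CPM and 1229, 1051, 1016 and 1244 CPM (1.25 ± 0.23, adjusted p = 0.00265). Clcn7, a chloride transporter of the lysosome, was at 59.4, 54.8, 80.8 and 44.5 CPM and 82.0, 116.6, 153 and 140.9 CPM (1.04 ± 0.21, adjusted p = 0.0036) and was called in all 18 alternatives. The cathepsins Ctsz (0.95), Ctsb (0.76) and Ctsa (0.64) rose less than 2-fold, with adjusted p values of 0.0043, 0.0452 and 0.0127.

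Few of the markers that define cell types were called. The summed level of 18 macrophage genes was 3100 to 3608 CPM in the controls and 4404 to 6673 CPM after 20 Gy, without overlap. Their mean log2 CPM, which weights the genes equally, overlapped at 5.25 to 6.04 and 5.92 to 6.14. Of these genes Fcgr1, the high-affinity IgG receptor, was called (1.56 ± 0.39, adjusted p = 0.0245), and the list's median was 0.67, with 13 values positive and 5 negative. All 10 core genes were positive (median 0.92), and the 8 anti-inflammatory genes had a median of -0.36 with 5 negative. Adgre1, which encodes F4/80, was at 78.4, 95.3, 163 and 76.6 CPM against 343, 231, 238 and 235 CPM (1.34 ± 0.44, adjusted p = 0.113). The mannose receptor gene Mrc1, of the anti-inflammatory subset, had overlapping values (-0.64 ± 0.53, adjusted p = 0.729). None of 7 monocyte genes passed (median 1.58). Ly6c2 was at 25.2, 41.7, 60.4 and 18.9 CPM against 109.9, 241, 314 and 267 CPM, without overlap (2.67 ± 0.76, adjusted p = 0.0532). Of 14 dendritic cell genes Itgax (1.81 ± 0.42, adjusted p = 0.0141) and Bst2, which is also on the interferon list (2.12 ± 0.55, adjusted p = 0.0285), rose, with a median of -0.04.

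The formyl peptide receptors Fpr1 and Fpr2, carried by neutrophils and other myeloid cells, rose among 19 neutrophil genes. The list's median was -0.21, with 8 values positive and 11 negative. Its 8 surface receptors had a median of 0.47 and its 11 granule and secreted genes one of -2.24, with 9 of the 11 negative. Fpr1 was at 2.10, 2.31, 6.30 and 2.49 CPM and 65.8, 18.7, 23.6 and 19.7 CPM (3.27 ± 0.63, adjusted p = 0.00298), with control replicate 3 above the other controls. Fpr2 rose by 1.92 ± 0.50 (adjusted p = 0.0299). The granule gene Ngp fell (-7.27 ± 1.87, adjusted p = 0.0282), from 1.46, 5.38, 62.5 and 1.66 CPM to 0.0389, 0.0741, 0.247 and 0.101 CPM, a control level that rested mainly on replicate 3. Ngp was called in 5 of 18 alternatives.

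Lymphocyte markers gave no called gene. For 23 T cell genes the median was 0.09, and the summed level was 125.8 to 264 CPM in the controls against 204 to 317 CPM after 20 Gy. Cd3e was at 10.6, 16.7, 18.7 and 5.90 CPM against 6.02, 10.4, 19.5 and 13.3 CPM (-0.08 ± 0.84, adjusted p = 0.991) and Cd8a at 16.9, 21.01, 24.7 and 10.1 CPM against 13.3, 15.8, 26.3 and 21.98 CPM (0.09 ± 0.83, adjusted p = 0.988), both with overlap. For 13 genes of natural killer and cytotoxic cells the median was 1.22, and the summed level ran from 56.5 to 202 CPM and then from 287 to 439 CPM. Gzmb, a protease of cytotoxic granules, was at 31.1, 50.8, 78.8 and 15.2 CPM and 165, 128.2, 165 and 197 CPM, without overlap but with controls spread over 5-fold (1.90 ± 0.78, adjusted p = 0.267). None of 8 B and plasma cell genes was called (median -0.17). None of 10 endothelial genes (median 0.36), 8 pericyte and smooth muscle genes (median -0.11), 10 mesenchymal genes (median 0.18) or 6 Schwann cell genes (median -0.05) was called. On the fixed list of 7 mast cell and eosinophil markers none was called (median -1.72), nor any of 5 sex-linked genes (median -0.47). That does not show balance, as Xist ran from 0.135 to 88.4 CPM in the controls and from 0.0741 to 181 CPM after 20 Gy. A term for label numbers beginning with 500 moved the mast cell and eosinophil median to 0.26.

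**Figure D4:**
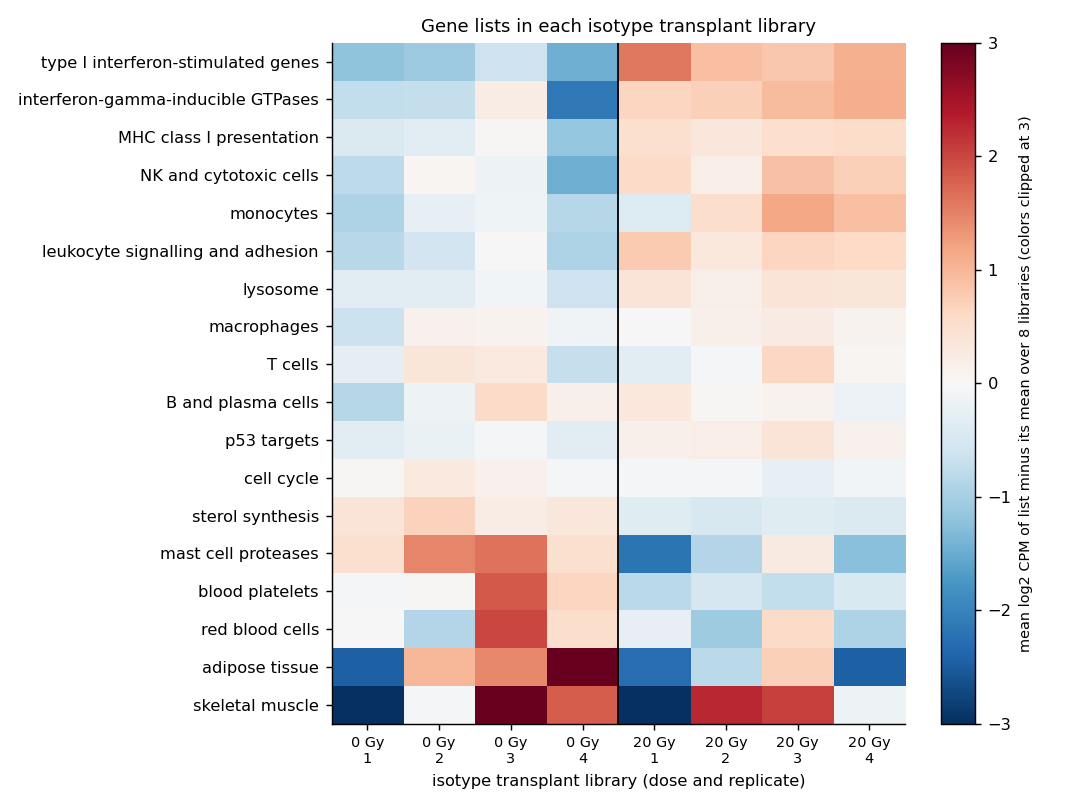
Mean log2 CPM of 18 gene lists in each isotype transplant library (columns, 4 at 0 Gy and 4 at 20 Gy), as the difference from the list's mean over the 8 libraries, with colors clipped at a difference of 3. Every 20 Gy library lies above every control for type I interferon-stimulated genes, interferon-gamma-inducible GTPases and MHC class I presentation. The same holds for NK and cytotoxic cells, leukocyte signalling and adhesion, lysosome and p53 targets. Every 20 Gy library lies below every control for cell cycle, sterol synthesis, mast cell proteases and blood platelets. The lists of leukocyte signalling and adhesion, lysosome, mast cell proteases and blood platelets were added after values were seen. Their separation is therefore no independent result. The other rows overlap between the doses, and the muscle row is lowest in replicate 1 of both doses.

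At 3 days after 20 Gy no gene on the lists of proliferation or repair had passed the test. Of 32 cell cycle genes none was called (median -0.20). Their mean log2 CPM was 6.04 to 6.35 in the controls and 5.83 to 6.02 after 20 Gy, without overlap. The 15 S phase genes had a median of 0.01 and the 17 genes of G2 and mitosis a median of -0.42, all 17 negative, with 6 wholly below the controls. Over all genes tested 4.49% ran wholly below. Ccnb1, the mitotic cyclin, was at 83.9, 101.8, 73.4 and 82.1 CPM and 67.5, 69.1, 53.3 and 54.6 CPM, without overlap (-0.48 ± 0.39, adjusted p = 0.723). Mki67 was at 146, 166, 217 and 153 CPM and 100.6, 129.6, 130.4 and 175 CPM, with overlap (-0.35 ± 0.35, adjusted p = 0.799). None of 25 genes of double-strand break repair was called (median -0.09), nor any of 14 hypoxia genes (median -0.31) or 17 immediate early and heat shock genes (median 0.30).

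Mmp13 (chr9:7272514-7283331), a collagenase, had the largest rise of the genes named by level and test. It was at 41.8, 23.2, 44.6 and 16.9 CPM in the controls and 722, 139.9, 470.5 and 266 CPM after 20 Gy, and irradiated replicate 1 was highest. The lowest irradiated value was over 3-fold above the highest control (3.66 ± 0.73, adjusted p = 0.00357), and 16 of 18 alternatives called it. It was the 1 gene called of 20 matrix metalloproteinases and inhibitors (median 0.26). The stromelysin Mmp3 was at 161, 79.3, 76.7 and 75.3 CPM and 1776, 349.6, 224 and 729 CPM, with values spread over nearly a factor of 8 after radiation (2.97 ± 1.25, adjusted p = 0.286). Mmp10 (2.45 ± 1.36, adjusted p = 0.497) and Mmp12 (2.03 ± 0.97, adjusted p = 0.38) had positive values that did not pass. None of 22 extracellular matrix genes was called (median 0.02). Tgfb1, of 15 genes of the TGF-beta pathway, rose from 97.5 to 146 CPM to 169 to 216 CPM (0.67 ± 0.16, adjusted p = 0.0199).

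Beyond the sterol genes, the lower genes were few and mixed. Mcpt2, a mast cell protease, was at 13.9, 22.4, 11.9 and 12.1 CPM and 0.253, 1.06, 2.27 and 0.481 CPM (-3.89 ± 1.07, adjusted p = 0.0424). Of 8 proteases of mast cells, listed after their values were seen, Mcpt2 alone was called (median -1.86), and the summed level was 76.3 to 225 CPM in the controls against 11.3 to 72.02 CPM after 20 Gy. With a term for label numbers beginning with 500 the list's median was -0.15, and Mcpt2 was called in 8 of 18 alternatives. Tpsb2, a tryptase, was at 14.6, 27.5, 41.7 and 22.9 CPM against 2.22, 5.63, 13.9 and 3.47 CPM (-2.08 ± 1.07, adjusted p = 0.445). Treml1, of platelets, was low at 0.501, 0.527, 1.13 and 0.964 CPM and 0.0584, 0.0988, 0.0548 and 0.0507 CPM (-3.51 ± 0.75, adjusted p = 0.00703), and the other 5 tested platelet genes were not called. Net1, an exchange factor for RhoA, was at 226, 238, 149 and 219 CPM and 86.4, 88.8, 108.1 and 92.9 CPM (-1.15 ± 0.28, adjusted p = 0.0195). Gas2, an actin-associated protein gene, was at 13.8, 15.9, 9.88 and 19.6 CPM and 6.09, 5.01, 3.81 and 4.51 CPM (-1.61 ± 0.43, adjusted p = 0.0355). Gulp1, an engulfment adaptor, fell with touching groups (-1.23 ± 0.34, adjusted p = 0.0452), as control replicate 3 was below irradiated replicate 1. Tmem184c (-0.90), Nadk2 (-0.83), Zfp667 (-0.74) and the noncoding Gm15867 (-1.89) completed the 12 named by rule, with adjusted p values of 0.0181, 0.0411, 0.0424 and 0.0254. Net1 and Tmem184c were called in 11 of 18 alternatives, Gm15867 in 10 and Gulp1 in 8. Nadk2 was called in 7, Gas2 in 6 and Zfp667 in 5. Lists for skeletal muscle (median -0.51), adipose tissue (median -4.18) and red blood cells (median -1.08) held no called gene, and each had overlapping groups in its summed level. All 13 mitochondrially encoded genes, also listed after values were seen, went without a call, with a median of -0.73 and 10 wholly below the controls. Of all genes tested 4.49% ran wholly below, and the label term moved the median of the 13 to -0.12.

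Of the 352 higher genes 231 were on no list, with a median log2 fold change of 1.39. The genes of smallest adjusted p among them were Znfx1, an RNA helicase, at 66.2, 63.6, 127.1 and 54.2 CPM and 274, 227, 237 and 282 CPM (1.71 ± 0.27, adjusted p = 0.000552), and Slc15a4, an endolysosomal transporter, at 28.9, 34.6, 39.9 and 28.7 CPM and 68.8, 51.3, 66.8 and 69.8 CPM (0.96 ± 0.15, adjusted p = 0.000552). Both were called in all 18 alternatives. Daxx rose by 1.42 ± 0.25 (adjusted p = 0.00186) and Rasgef1b by 2.02 ± 0.35 (adjusted p = 0.00186). A330040F15Rik (2.88 ± 0.51, adjusted p = 0.00186) and Gm6545 (3.26 ± 0.70, adjusted p = 0.00695) overlap on the same strand, so their reads are uncertain. Picked after their values were seen, Siglec1, a receptor of macrophages, was at 31.0, 53.7, 77.2 and 41.0 CPM and 333, 222, 227 and 248 CPM (2.34 ± 0.42, adjusted p = 0.00219), and Adar, the RNA editing enzyme, at 65.7, 62.6, 102.8 and 47.9 CPM and 202, 191, 168 and 201 CPM (1.45 ± 0.26, adjusted p = 0.0022). None of these values overlapped between the doses. Of the 372 called genes 50 had a mean log2 CPM under 1 and 9 were annotated as antisense, where the strand setting of the counting matters.

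The same contrast under anti-PD-1 antibody used 8 other transplants. There 0.595% of the genes tested were called, 0.538% higher and 0.0569% lower, and 3 genes were called without replicate 4 of its controls. All 372 genes had the same sign there, and 80 of them were called, which is 21.5% of the 372 and 69.6% of the genes called there. Among all genes with a positive value under isotype 66.1% were positive under anti-PD-1, and among those with a negative value 62.1% were negative. The genes called higher had a median of 1.51 under isotype and 1.18 under anti-PD-1. Of the 47 interferon-stimulated genes 10 were called there and 47 were positive (median 1.55). Irf7 under anti-PD-1 was at 241, 265, 305 and 119.5 CPM and 1668, 746, 1370.2 and 898 CPM (2.33, adjusted p = 0.0405), and Cdkn1a at 88.6, 41.8, 69.6 and 75.1 CPM and 212, 326, 199 and 176 CPM (1.73, adjusted p = 0.00711). Both genes ran without overlap there too, as did 5.63% of all genes with every irradiated library above and 3.24% with every one below. Idi1 was at 19.9, 10.3, 12.9 and 16.7 CPM and 3.77, 5.02, 5.38 and 4.203 CPM (-1.70, adjusted p = 0.0733). Mmp13 overlapped between the doses, at 14.0, 61.7, 112.996 and 26.0 CPM and 508, 40.2, 126.3 and 104.9 CPM (1.86, adjusted p = 0.184). The mitochondrially encoded genes had a median of 0.28 there, of the other sign. The difference between the 2 effects, tested as an interaction of radiation with antibody, was called for 0 genes (0.0%) by edgeR, and 251 genes (1.3%) had an unadjusted p under 0.05. DESeq2 and limma voom also called 0.

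In primary tumors, where 8 irradiated and 8 control tumors each arose in their own host, 3534 genes were called (18.3%), 1776 higher (9.19%) and 1758 lower (9.1%). With total counts as the only scaling 1899 were higher and 1194 lower, and with only the groups compared in the fit 1402 were higher and 750 lower. Of the 372 genes 358 had the same sign there, and 312 were called, which is 83.9% of the 372 and 8.83% of the 3534. Over all genes the share of the same sign was 56.3% for positive and 57.8% for negative values. The genes called higher in transplants had a median of 1.36 in primary tumors. All 47 interferon-stimulated genes were called higher there (median 1.88), 19 of the 20 sterol synthesis enzymes lower (median -1.12) and 18 of the 32 cell cycle genes lower. The 18 interferon-gamma-inducible GTPases were all called higher as well (median 2.42). Cdkn1a was at 2.21 ± 0.23 (adjusted p = 3.17e-08). Mmp13 was near 0 on the log2 scale there (adjusted p = 0.997), against 3.66 ± 0.73 in transplants, and the test of that difference gave 3.66 ± 0.84 (adjusted p = 0.285). The test of radiation with tumor model as an interaction called 1 gene, 0.00517% of the genes tested, and 1908 genes (9.87%) had an unadjusted p under 0.05. It was Swap70, picked after its values were seen, a guanine nucleotide exchange factor of leukocytes, at 76.1, 69.4, 77.3 and 56.9 CPM and 122.05, 98.3, 95.7 and 101.96 CPM in transplants (0.58 ± 0.14, adjusted p = 0.0157) and -0.34 ± 0.10 in primary tumors (adjusted p = 0.0115). The difference was 0.92 ± 0.17 (adjusted p = 0.0398) and was lost with any 1 of 7 of the 8 isotype transplant libraries left out.

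**Figure D5:**
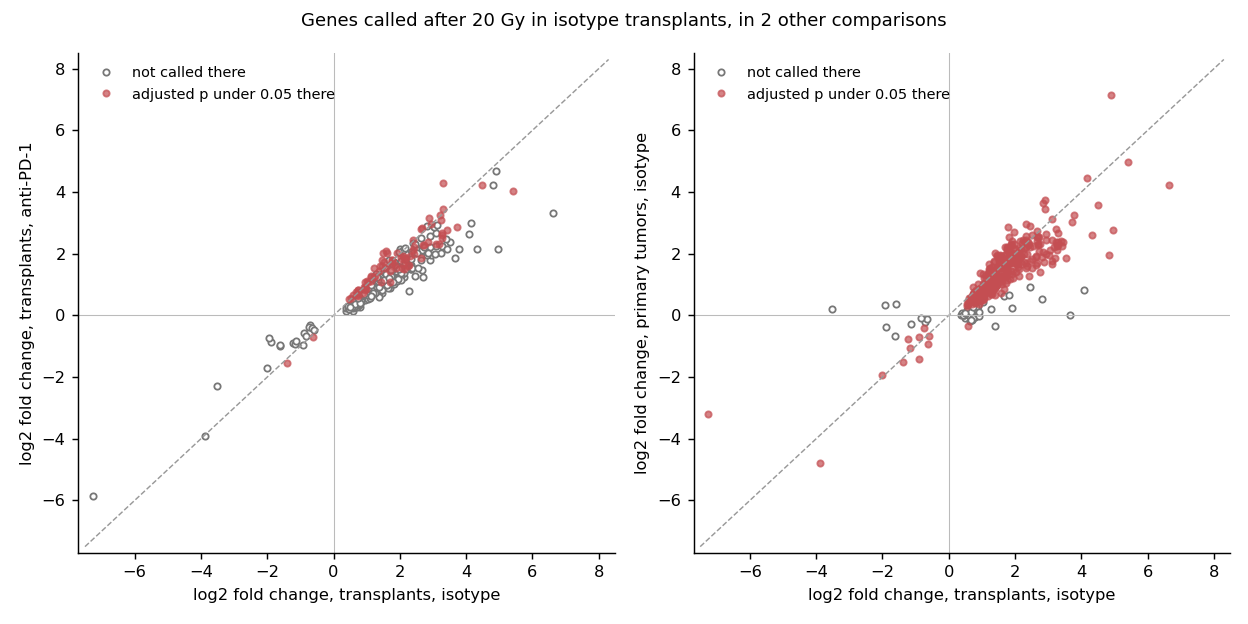
Log2 fold change (20 Gy minus 0 Gy) of the 372 genes called in isotype transplants (x axis) against the same genes in anti-PD-1 transplants (left, 4 against 4 libraries) and in isotype primary tumors (right, 8 against 8), red where also called there. On the left all 372 share the sign and 80 are red, on the right 358 share the sign and 312 are red, and the dashed line marks equal values.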

How the data were processed

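RNA-seq libraries (poly(A) selection, stranded kit) were made from whole tumors. Reads had been trimmed by the authors (Trimmomatic 0.36), aligned with STAR to mm10 and summed over GENCODE genes. The strand setting of the counting is not given in the sources used here. The deposited values are whole-number counts per gene, with no normalization by the authors, and cover 37469 identifiers (37408 with a symbol). All 50 columns were mapped to libraries by name. CPM, counts scaled to a common library total, were computed here.

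Genes were filtered by expression, scaled by TMM and fitted with edgeR 4.0.16 (R 4.3.3) in a robust quasi-likelihood model with 1 mean per group over 48 tumor libraries, which left 19327 genes and a common coefficient of variation of 47.9%. Groups had 4 libraries in transplants and 8 in primary tumors. Values written as a ± b in parentheses are log2 fold changes with their standard error. Adjusted p values are Benjamini-Hochberg values over all genes tested, and called means under 0.05. Each group's replicate pairs differed by more than sampling noise. On simulated counts for the transplant comparison over 19327 genes, 23% of 100 genes changed by 1 on the log2 scale and 69% of 100 changed by 2 were recovered, and 7 of 99 calls were false. Alternatives used DESeq2 1.42.0, limma 3.58.1 and the settings given in the closing section. Named genes were the 12 largest changes in each direction among called genes with a mean log2 CPM of at least 1, the 10 smallest adjusted p values, members of 38 fixed and 6 added lists, and Trp53. The comparison, its members and the lists were chosen with earlier results of these data known. Promoter windows came from RefSeq (GRCm38.p6), and 13118 tested genes matched by symbol. Library-level values were compared by exact permutation tests (scipy 1.17.1). Results for some genes are not reported here.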

Additional observations from a re-analysis of the deposited data

Results flagged for a closer look

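In 11 of the sets of 4 libraries examined, which is 8.59% of them, 1 library stood far from the others by Dixon's test at the 95% level, which chance alone passes in about 5% of sets. Control replicate 3 was high for Fpr1 (2.67 log2 CPM, others 1.10 to 1.34) and Gm6545 (1.81, others 0.169 to 0.418) and low for Gulp1 (4.36, others 5.20 to 5.32). Control replicate 2 was high for Cyp51 (5.95, others 5.30 to 5.37). Irradiated replicate 2 was high for Gm15867 (0.888, others 0.048 to 0.161) and low for Slc15a4 (5.68, others 6.06 to 6.13), Slfn8 (4.34, others 4.63 to 4.67) and the mean log2 CPM of the lysosome list (7.60, others 7.80 to 7.83). Irradiated replicate 3 had the lowest mean log2 CPM of the cell cycle list (5.83, others 5.99 to 6.02). Total counts set apart control replicate 1, lowest at 39637928, and irradiated replicate 1, highest at 53307204. The radiation effect on Swap70 differed between transplants and primary tumors by 0.916 on the log2 scale (edgeR interaction, adjusted p = 0.0398).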

How the results depend on the processing

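Of the 372 genes called after radiation alone, those tested in each alternative kept their direction in all 18, and 67 were called in each of the 8 fits that left out 1 library. The number called was 909 with the 16 transplants alone, 1047 with only the groups compared, 599 by DESeq2, 228 with no filter on low counts, 72 with a term for label numbers beginning with 500 and 6 without replicate 1 of both groups, and ran from 72 to 631 with 1 library left out. For the interferon-stimulated genes the count of 45 became 11 with the label term and 1 without replicate 1 of both groups, and ran from 16 to 44 with 1 library left out. For sterol synthesis the count of 3 became 9 with the 16 transplants alone, 6 by DESeq2, 12 with only the groups compared and 0 with the label term or without replicate 1 of both groups, and ran from 0 to 3 with 1 library left out. Under anti-PD-1 the number called became 689 with the 16 transplants alone, 481 by DESeq2, 311 by limma voom, 30 with no filter, 1 with only the groups compared, 57 with a term for Xist at 1 CPM or more, 54 with the label term and 75 with total counts as the only scaling, and ran from 3 to 180 with 1 library left out. In primary tumors only the fit of the groups compared moved the 3534 calls by over 1.5 times, to 2152. The interaction with tumor model called 4 genes by DESeq2, 0 with size factors of the RLE kind, total counts, no filter, only the groups compared, the Xist term or the label term, and 0 to 2 with 1 library left out. The interaction with antibody stayed at 0 in the alternatives run. The causes were not tested.

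The difference in total counts ran from -4046837 to 1042190 with 1 library left out and was positive without control replicate 2 (54585) or irradiated replicate 2 (910186), 3 (1042190) or 4 (185602). The muscle share differed by -0.547 to 0.113 percentage points, positive without control replicate 3 (0.113). Among 2556 values of named called genes under the alternatives 826 missed the threshold and 0 changed direction. The Xist term and the fit without replicate 1 of both groups were chosen after seeing the data. No paired analysis was possible because the labels give no replicate numbers that groups share, and the numbers used here follow accession order.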
